A study of Caenorhabditis elegans with 6 samples.

Results

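Transcripts of the methionine cycle and of the methylation branch that makes phosphocholine were followed in Caenorhabditis elegans, in whole hermaphrodites of the reference strain N2. The 10 genes were taken by name from the 46748 genes of the deposited count table, and all 10 were found and passed the filter on low counts. They are the S-adenosylmethionine (SAM) synthetases sams-1, sams-3, sams-4 and sams-5, the cycle enzymes ahcy-1, metr-1, mtrr-1 and mthf-1, and the phosphoethanolamine methyltransferases pmt-1 and pmt-2. The 3 control libraries came from worms given L4440, the empty vector commonly used for RNA interference (RNAi), and the 3 others from worms given RNAi against T25B9.1. No other allele or agent is labelled in either group, and all worms were aged 2 days (from the last larval stage, by the title of the series). T25B9.1 encodes the nematode form of glycine C-acetyltransferase, which in mitochondria turns a threonine product into glycine. Separate cultures are not stated for the libraries of a group, and the p-values therefore cover the spread between these libraries only, which may be technical.

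The methionine cycle supplies SAM, the methyl donor of most methylation reactions in the cell. SAM synthetases join methionine to the adenosyl group of ATP, methyltransferases spend the methyl group, and adenosylhomocysteinase splits the spent product into homocysteine and adenosine. Methionine synthase then methylates homocysteine back to methionine with a methyl group from folate, using cobalamin (vitamin B12) as cofactor. In worms a large share of SAM goes into phosphatidylcholine, because PMT-1 and PMT-2 build phosphocholine by methylating phosphoethanolamine, and loss of sams-1 is known to lower phosphatidylcholine and raise stored fat. Glycine feeds methyl groups into the folate pool through the glycine cleavage system, which places the knocked-down enzyme upstream of this cycle on the metabolic map.

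Total counts ran from 26125982 to 40726259 per library. T25B9.1 was at 5.99, 4.99 and 6.39 CPM (read counts scaled to the library total and by TMM composition factors) in L4440 replicates 1, 2 and 3 and at 1.35, 1.71 and 1.76 CPM in the RNAi replicates, with no overlap (log2 fold change -1.84, SE 0.18, edgeR adjusted p = 0.0525, DESeq2 adjusted p = 1.41e-11). Markers of intestine (7 of 7), germline and oocyte (8 of 8), hypodermis (6 of 6), body wall muscle (6 of 6), neurons (6 of 6) and pharynx (5 of 5) were all above the filter, as the label of whole worms calls for. T25B9.1 RNAi replicate 1 stood apart: on the first principal component of the 500 most variable genes its score was 29.9, L4440 replicate 2 lay on the other side at -22.4, and the remaining 4 scored from -3.40 to 0.53. Log2 fold changes of single genes printed here that moved by over 1.5 times without RNAi replicate 1 are given with and without it. Those of ahcy-1, mtrr-1 and pmt-1, near 0, are among the fits with 1 library left out.

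None of the 10 genes was called between the groups. Across all 13374 genes tested, edgeR's quasi-likelihood test called 0.0% at an adjusted p under 0.05, and at an unadjusted p under 0.05 it held 6.18% of all genes (4.01% higher and 2.17% lower with RNAi) and 0 of the 10. DESeq2 called 0 of the 10 (0.112% of all genes), and edgeR's likelihood ratio test called 0 (0.0897%). The 3 libraries of 1 group lay wholly beyond the other group for 10.9% of all genes (5.53% higher and 5.32% lower with RNAi) and for 0 of the 10. In edgeR's fit 4 of the 10 had a log2 fold change below 0, as did 49.4% of all genes, and the median of the 10 was 0.012 against 0.0024 over all genes. In whole worms a lower level could come from fewer cells of a type or from less RNA per cell, and these cannot be told apart.

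**Figure D1:**
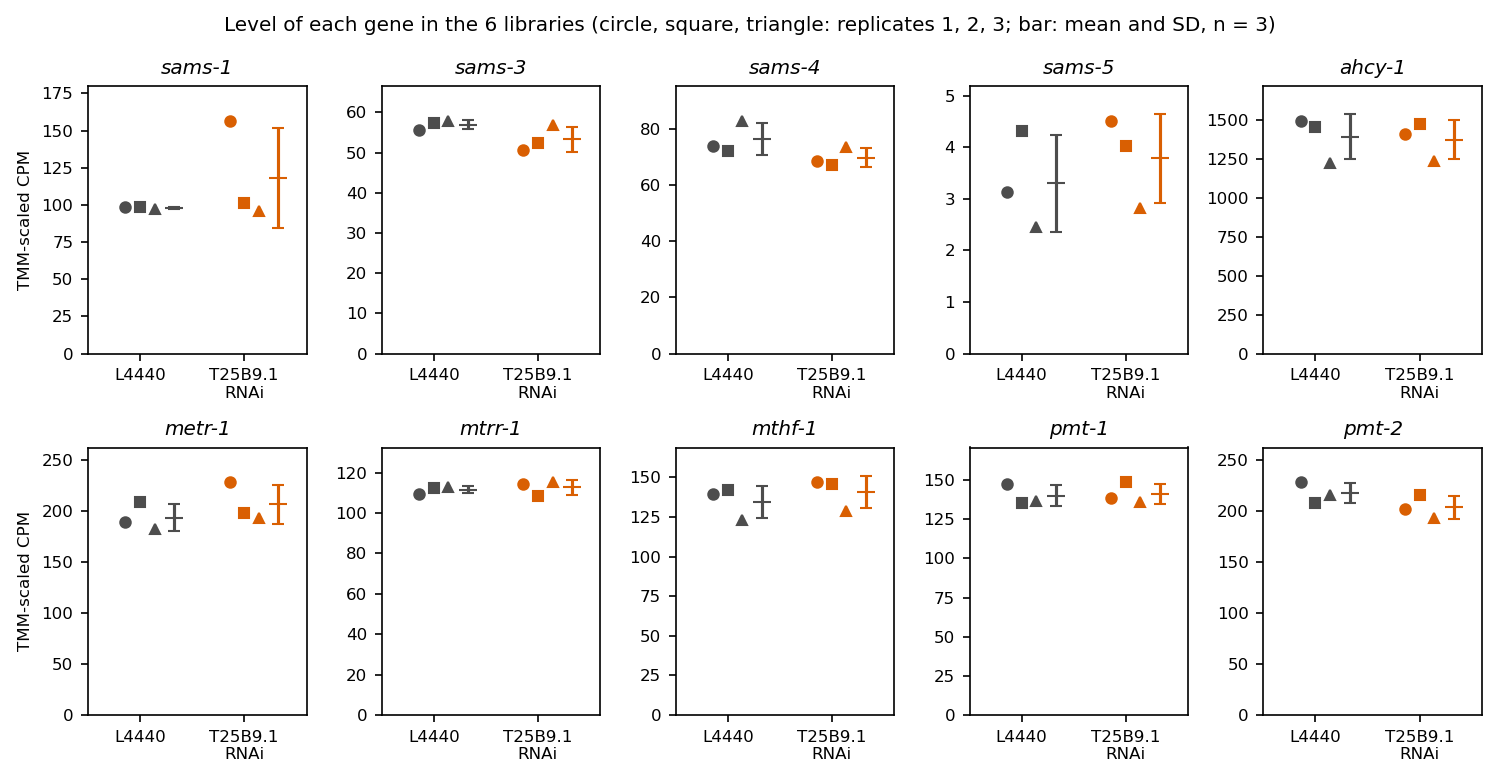
TMM-scaled CPM of the 10 genes (y axis, from 0, own scale per gene) in L4440 (grey) and T25B9.1 RNAi (orange) libraries, 1 point per library, with the mean and SD of 3 beside them. The groups overlap for every gene, and the 1 point far from its group is sams-1 in T25B9.1 RNAi replicate 1 at 157 CPM.

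The gene sams-1, the SAM synthetase that supplies phosphatidylcholine synthesis in the adult worm, was nearly constant in 5 of the 6 libraries and high in 1. It lies on chromosome X at 11965962 to 11969893 (plus strand, build WBcel235). Its level was 98.6, 98.3 and 97.1 CPM in L4440 replicates 1, 2 and 3 and 157, 101 and 95.8 CPM in RNAi replicates 1, 2 and 3. The controls differed by a coefficient of variation (CV) of 0.799%, which was below the 1.87% that counting alone gives at this depth. RNAi replicate 1 was therefore the only library to leave a narrow band, and RNAi replicate 3 was below every control. The fitted log2 fold change was 0.26 (SE 0.16, 95% interval -0.11 to 0.63, edgeR adjusted p = 0.717), and without T25B9.1 RNAi replicate 1 it was 0.0039.

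Several tissue marker lists moved in that same library. Relative to the L4440 mean, T25B9.1 RNAi replicate 1 had a median log2 difference of 1.57 over 5 pharynx markers, 0.99 over 6 moulting genes, 0.81 over 6 hypodermis markers, 0.77 over 6 body wall muscle markers and 0.77 over 6 neuron markers. The hypodermis median lay between 2 sets of genes. The cuticle collagen genes dpy-7, rol-6 and dpy-13 were at 18.3, 18.9 and 27.5 CPM in RNAi replicate 1, above every other library. In the same library elt-3, lin-26 and col-19, also a cuticle collagen gene, were at 9.66, 146 and 83.0 CPM, below their control means. Intestine markers stood at 0.24 and germline and oocyte markers at 0.024 in the same library, while sams-1 stood at 0.68. Summed pharynx markers ranged from 72.8 to 99.9 CPM in the controls and from 93.5 to 215 CPM with RNAi. Summed moulting genes ranged from 150.2 to 218 CPM and from 218 to 431 CPM. Summed hypodermis markers ranged from 255 to 289 CPM and from 251 to 304 CPM, and summed body wall muscle markers from 848 to 1186 and from 828 to 1644 CPM. Summed neuron markers ranged from 212 to 238 CPM in controls and from 204 to 230 CPM after RNAi. Most of this sum was snb-1, at 150 CPM in RNAi replicate 1, below its control mean of 175 CPM. Every other neuron marker was highest in RNAi replicate 1. No marker on these lists was at 0 in all libraries. The part of these markers in the level of sams-1 was not tested.

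**Figure D2:**
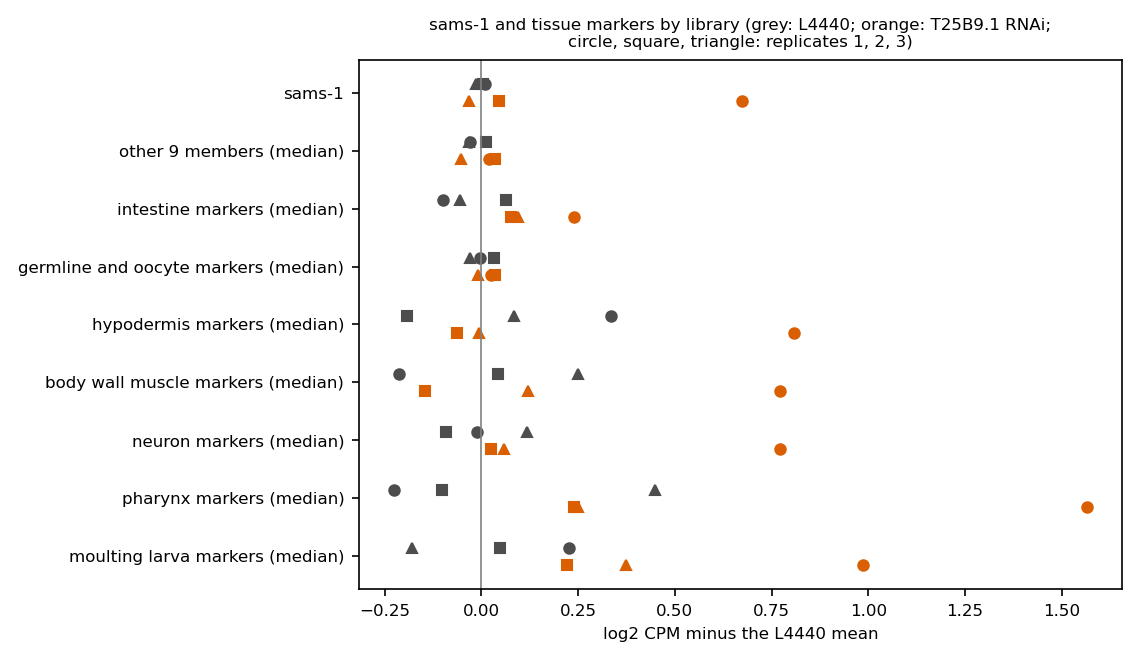
Log2 CPM minus the L4440 mean (x axis) for sams-1, for the median of the other 9 genes and for the medians of 7 marker lists, 1 point per library (grey L4440, orange T25B9.1 RNAi). RNAi replicate 1 (orange circle) lies far to the right for sams-1 (0.68) and for pharynx markers (1.57), and at 0.021 for the other 9 genes.

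The paired genes sams-3 and sams-4 encode close copies of the same enzyme and sit head to head on chromosome IV. The gene sams-4 runs from 5844061 to 5846369 on the minus strand and sams-3 from 5848657 to 5850843 on the plus strand (WBcel235), with 2287 bases and no protein-coding gene between them. Reads that match more than 1 SAM synthetase could be split or dropped by the authors' counting, whose settings were not stated, and sams-3 also shares 18 exonic bases with C06E7.4 on the opposite strand. Levels of sams-3 were 55.6, 57.3 and 57.9 CPM in controls and 50.8, 52.3 and 56.8 CPM after RNAi. Levels of sams-4 were 74.1, 72.4 and 83.0 CPM in controls and 68.5, 67.2 and 73.6 CPM after RNAi. For each gene 2 of the 3 RNAi libraries were below every control, and RNAi replicate 3 lay within the control range.

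Neither difference passed the test. The log2 fold change was -0.095 for sams-3 (SE 0.068, 95% interval -0.25 to 0.060, edgeR adjusted p = 0.729) and -0.13 for sams-4 (SE 0.074, 95% interval -0.30 to 0.036, edgeR adjusted p = 0.717). With the pair counted as 1 gene, the sum was 133 ± 6.42 CPM in controls and 123 ± 6.31 CPM after RNAi (SD, n = 3), with a log2 fold change of -0.12 (SE 0.068, 95% interval -0.27 to 0.038). The sum was not called either, with an edgeR adjusted p = 0.717. Between libraries with consecutive numbers in the labels (13 and 14, 17 and 18, 21 and 22), sams-4 was lower with RNAi by 0.11, 0.11 and 0.17 on the log2 scale and sams-3 by 0.13, 0.13 and 0.028. All 3 such differences were below 0 for 18.6% of all genes tested. With those numbers as a block, sams-4 had a log2 fold change of -0.13 and an unadjusted p of 0.0471, and edgeR's adjusted p = 0.455. The log2 fold change of sams-4 was -0.071 without L4440 replicate 3.

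The gene sams-5, a further synthetase gene, lies on chromosome IV at 6277433 to 6279522 (minus strand). It was covered by only 71 to 133 counts per library, so that counting error alone reached 11.9%. Its level was 3.14, 4.31 and 2.45 CPM in controls and 4.51, 4.02 and 2.82 CPM after RNAi, and the groups overlapped. For sams-5 the log2 fold change was 0.19 (SE 0.25, 95% interval -0.39 to 0.76, edgeR adjusted p = 0.845). This interval is the widest of the 10 genes, and a difference of up to 1.70-fold could not be told from none at this depth and spread. The log2 fold change of sams-5 was 0.030 without T25B9.1 RNAi replicate 1. Leaving out L4440 replicate 3 gave 0.011, and leaving out L4440 replicate 2 gave 0.44.

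Scaled for exonic length, the summed level of the 4 SAM synthetases was 112.9, 113.5 and 118 CPM per kilobase in the controls and 134, 109 and 112 CPM per kilobase with RNAi. The gene sams-1 made up 37.9 ± 1.13% of that sum with L4440 and 43.6 ± 7.21% with RNAi (SD, n = 3). In RNAi replicate 1 the share of sams-1 was 51.7%, and in RNAi replicates 2 and 3 it was 41.0% and 38.0%, against 36.6% to 38.7% in the controls. The genes sams-4 and sams-3 held 35.3 ± 1.85% and 24.9 ± 0.365% with L4440 (SD, n = 3). With RNAi, sams-4 held 31.5 ± 4.01%, and sams-3 held 18.9%, 24.0% and 25.4% in replicates 1, 2 and 3. The share of sams-5 was 1.94 ± 0.579% and 2.14 ± 0.401%. Thus 3 genes carried nearly all of the synthetase transcript in both groups. The larger share of sams-1 with RNAi rested on replicate 1, since without it the RNAi mean was 39.5%.

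The gene ahcy-1 encodes adenosylhomocysteinase, which removes the product that would otherwise block methyltransferases. It lies on chromosome I at 6836469 to 6838140 (plus strand) and was by far the most abundant of the 10. Its level was 1492, 1452 and 1225 CPM in L4440 replicates 1, 2 and 3 and 1405, 1474 and 1233 CPM in the RNAi replicates. The lowest library of each group was its replicate 3, and the groups covered almost the same range. Its log2 fold change was -0.020 (SE 0.11, 95% interval -0.26 to 0.22, edgeR adjusted p = 0.966), a sign that turned with upper quartile factors or library totals only and in 3 of the 6 fits that left out 1 library.

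Remethylation of homocysteine needs metr-1 (methionine synthase), mtrr-1 (the reductase that keeps its cobalamin active) and mthf-1 (methylenetetrahydrofolate reductase, which makes the methyl folate it uses). All 3 genes lie on chromosome II, at 10926561 to 10931078, 9285975 to 9289132 and 7773904 to 7777823. Levels of metr-1 were 189, 209 and 183 CPM in controls and 228, 198 and 193 CPM after RNAi. RNAi replicate 1 held the highest value, and the other 2 RNAi libraries lay within the control range. For metr-1 the log2 fold change was 0.093 (SE 0.086, 95% interval -0.10 to 0.29, edgeR adjusted p = 0.775), with 0.011 when T25B9.1 RNAi replicate 1 was left out and 0.16 when L4440 replicate 2 was.

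The reductase gene mtrr-1 was the steadiest of the 10, at 109.5, 113 and 113 CPM in controls and 114.4, 108.5 and 115.2 CPM after RNAi. Only 1.20% of all genes tested, of any level, varied less over the 6 libraries. Its log2 fold change of 0.013 (SE 0.059) had the narrowest interval of the set, from -0.12 to 0.15, so that RNAi levels from 0.92 to 1.11 times the control were within the error (edgeR adjusted p = 0.959). Levels of mthf-1 were 139, 142 and 123 CPM in controls and 147, 146 and 129 CPM after RNAi. As for ahcy-1, replicate 3 was the lowest library of either group. For mthf-1 the log2 fold change was 0.060 (SE 0.082, 95% interval -0.13 to 0.25, edgeR adjusted p = 0.845), and leaving out T25B9.1 RNAi replicate 3 or 1 gave 0.12 or 0.024. Leaving out L4440 replicate 2 gave 0.11, and leaving out L4440 replicate 3 gave -0.0022. Between libraries with consecutive numbers, mthf-1 was higher with RNAi by 0.076, 0.040 and 0.067 on the log2 scale, and all 3 such differences were above 0 for 18.5% of all genes tested. The sign of mtrr-1 also turned, to -0.0011, with no filter on low counts. The genes mthf-1 and C06A8.6 on the opposite strand share 11 exonic bases, and C06A8.6 had 0 to 10 counts per library.

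The phosphoethanolamine methyltransferases use SAM in sequence, with PMT-1 adding the first methyl group and PMT-2 the remaining ones. The gene pmt-1 lies on chromosome II at 5278090 to 5282523 (minus strand) and pmt-2 on chromosome V at 4628580 to 4635263 (plus strand). Levels of pmt-1 were 148, 136 and 137 CPM in controls and 139, 149 and 136 CPM after RNAi. Levels of pmt-2 were 228, 208 and 216 CPM in controls and 202, 215 and 193 CPM after RNAi. The groups overlapped for both genes, with 2 of the 3 RNAi libraries below every control for pmt-2. The log2 fold change was 0.011 for pmt-1 (SE 0.068, 95% interval -0.14 to 0.16, edgeR adjusted p = 0.970), with its sign turned to -0.0018 with no filter. For pmt-2 it was -0.095 (SE 0.071, 95% interval -0.26 to 0.066, edgeR adjusted p = 0.740), and -0.15 without T25B9.1 RNAi replicate 2.

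**Figure D3:**
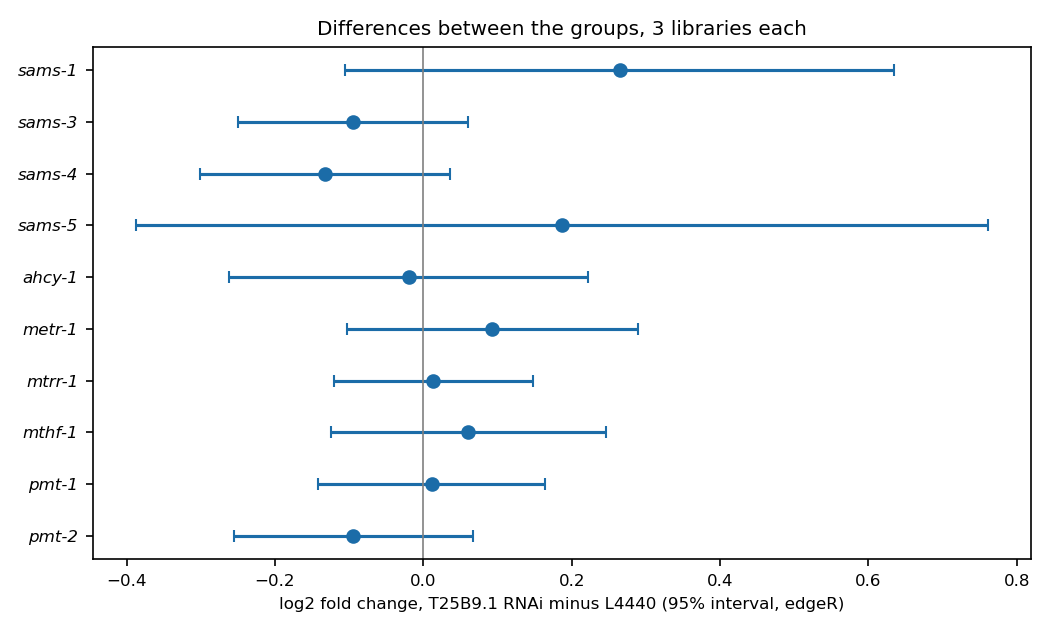
Log2 fold change of each gene, T25B9.1 RNAi minus L4440 (x axis), from edgeR's fit of 3 libraries per group, with 95% intervals as bars. All 10 intervals include 0, from the narrow interval of mtrr-1 (-0.12 to 0.15) to the wide one of sams-5 (-0.39 to 0.76).

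Apart from sams-1 and sams-5, the intervals of the 8 remaining genes reached no further than a 1.23-fold difference in either direction. The widest of these 8 was that of ahcy-1, and the 1.23-fold bound was that of sams-4, on the lower side. The CV within L4440 ran from 0.799% (sams-1) to 28.5% (sams-5), where the median of all genes tested was 9.82%. Over genes above 50 CPM, where all members but sams-5 lie, that median was 6.10%. With RNAi the CV ran from 3.25% (mtrr-1) to 28.5% (sams-1), where the median was 10.3% over all genes and 6.56% over genes above 50 CPM.

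Ratios within a library, which do not depend on its scaling, showed how partner genes moved together. The ratio of pmt-2 to pmt-1 was 1.54, 1.54 and 1.58 in the controls and 1.46, 1.45 and 1.42 with RNAi, 1.55 ± 0.0229 against 1.44 ± 0.0196 (SD, n = 3), with no overlap. The ratios of sams-3 and of sams-4 to mtrr-1 did not overlap either, and both were lower with RNAi. For sams-4 over mtrr-1 the values were 0.677, 0.643 and 0.735 with L4440 and 0.599, 0.619 and 0.639 with RNAi. These were 3 of the 45 ratios that 10 genes can form (6.67%), while 11.5% of the ratios of any 2 tested genes, and 9.04% of those of 2 genes above 50 CPM, did not overlap. The share among the 10 genes was thus no higher than among all genes. The neighbours sams-4 and sams-3 kept a ratio of 1.34 ± 0.0859 with L4440 and 1.31 ± 0.0354 with RNAi (SD, n = 3), and metr-1 and mtrr-1 one of 1.73 ± 0.118 and 1.83 ± 0.158.

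**Figure D4:**
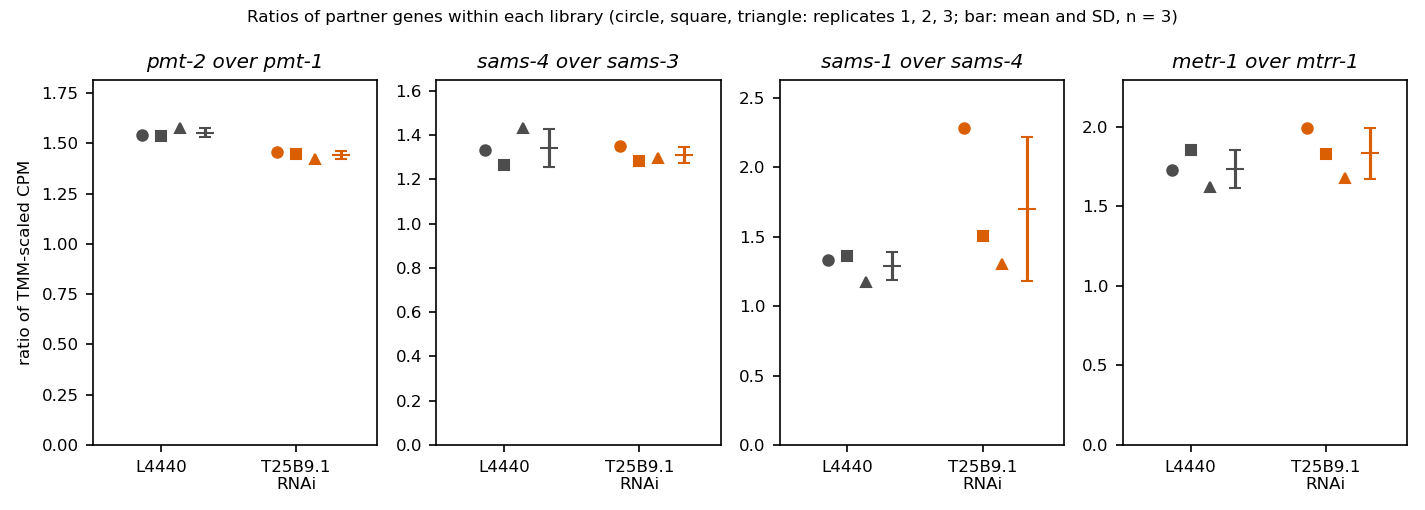
Ratio of TMM-scaled CPM (y axis, from 0) of 4 gene pairs in each library, grey for L4440 and orange for T25B9.1 RNAi, with the mean and SD of 3. The groups separate for pmt-2 over pmt-1 (1.54 to 1.58 against 1.42 to 1.46) and overlap for the 3 other pairs, with RNAi replicate 1 high for sams-1 over sams-4 at 2.28.

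Compared per exonic kilobase, the 10 genes covered a wide range of levels. With L4440, ahcy-1 was at 905 ± 93.7 CPM per kilobase, 6.55 times the level of pmt-2 at 138 ± 6.36. Next came pmt-1 at 74.5 ± 3.55 CPM per kilobase (all SD, n = 3). These 3 genes did not overlap with each other or with the genes below them in either group. The remethylation genes formed one level, with mtrr-1 at 51.5 ± 0.869, mthf-1 at 49.2 ± 3.72 and metr-1 at 49.1 ± 3.42 CPM per kilobase, and neighbours among them overlapped in both groups. The gene sams-1 followed at 43.5 ± 0.347 and sams-4 at 40.5 ± 3.01, which overlapped with L4440 but not with RNAi. Levels of sams-3 (28.5 ± 0.583) and sams-5 (2.22 ± 0.632) were the lowest and overlapped with no neighbour in the order. With RNAi, sams-1 was at 52.3 ± 14.9 CPM per kilobase and overlapped with metr-1, and the values of its 3 libraries were 69.4, 44.9 and 42.5.

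**Figure D5:**
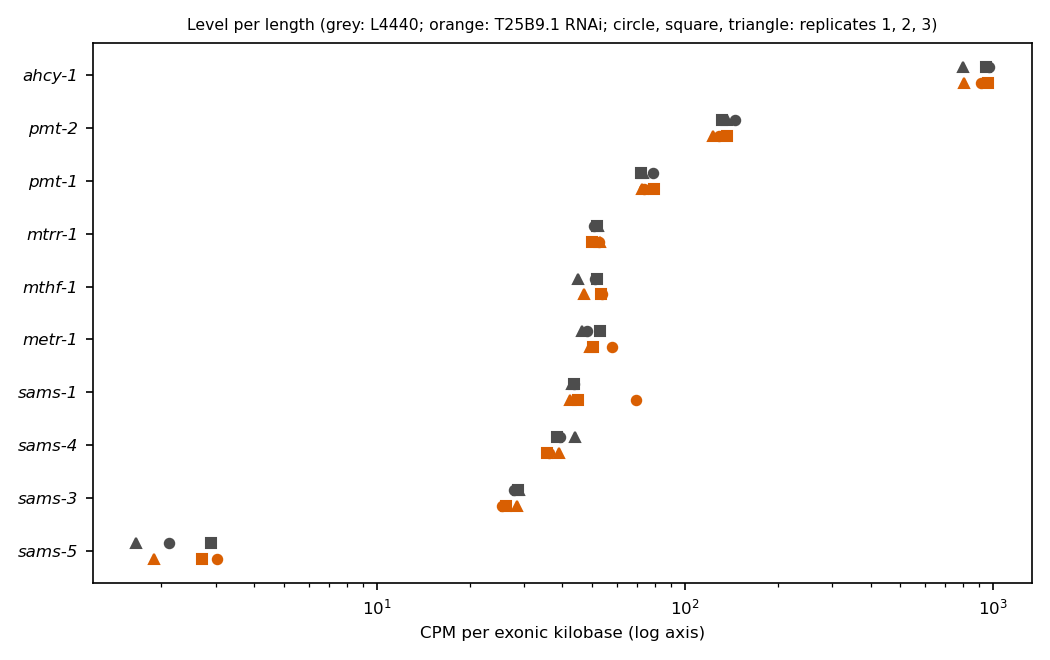
CPM per exonic kilobase (x axis, log scale) of the 10 genes, ordered by their L4440 mean, with 1 point per library (grey L4440, orange T25B9.1 RNAi). The gene ahcy-1 lies near 905 and sams-5 near 2.22, and the remethylation genes mtrr-1, mthf-1 and metr-1 fall on each other at about 49 to 52 in the controls.

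Patterns over the 6 libraries were compared by the root mean square difference of log2 CPM centred on each gene's mean. No member had another member as its nearest gene, which was likely beforehand with 10 members among 13374 tested genes. The nearest other member ranked from 190 (for ahcy-1) to 1463 (for mtrr-1) among all genes. The gene nearest to sams-1 was mup-4 (0.052), at 65.1, 65.3 and 63.1 CPM in controls and 97.8, 65.1 and 67.4 CPM after RNAi. Its high value in RNAi replicate 1 follows from its choice by likeness to sams-1 and is no separate observation. For ahcy-1 the nearest gene was Y56A3A.2 (0.019), for metr-1 unc-18 (0.019), for mtrr-1 mbk-2 (0.011), for pmt-1 wdr-12 (0.020) and for pmt-2 lias-1 (0.014). Nearest to mthf-1 was pcca-1 (0.014), a propionyl-CoA carboxylase subunit gene. The genes sams-3, sams-4 and sams-5 had Y48G9A.11 (0.014), W02D7.6 (0.015) and WBGene00007915 (0.043). Among the 10 themselves, pmt-1 and pmt-2 (0.056), ahcy-1 and mthf-1 (0.057) and sams-3 and sams-4 (0.060) were each other's nearest. Over all tested genes, pmt-2 ranked 432 in nearness to pmt-1, mthf-1 ranked 190 to ahcy-1 and sams-4 ranked 868 to sams-3. In the other direction the ranks were 426, 289 and 450. The spread of pmt-1 about its own mean was 0.055, so a flat gene would lie about as near to it as pmt-2. This measure favours genes that vary little, and it is a description of 6 libraries.

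Around the cycle, 7 lists of related genes held 0 calls by edgeR's quasi-likelihood test, which called 0.0% of all genes tested. For choline and ethanolamine head groups 14 of 15 genes were tested, 9 were below 0 and the median log2 fold change was -0.052. The choline kinase gene cka-1 was at 65.2, 68.3 and 73.6 CPM in controls and 60.0, 63.3 and 65.2 CPM after RNAi, and the choline kinase gene ckb-4 at 8.30, 7.94 and 8.70 and at 9.74, 9.09 and 9.32 CPM. The mean of cka-1 was lower and that of ckb-4 higher with RNAi. The groups overlapped for cka-1 and not for ckb-4, where 10.9% of all genes did not overlap. Neither gene passed (edgeR adjusted p = 0.717 for each). For folate and one-carbon supply, which includes the glycine cleavage system, 8 of 11 were below 0 with a median of -0.054. The genes with the smallest p there were dhfr-1 (dihydrofolate reductase), at 84.7 ± 4.91 CPM in controls and 76.8 ± 7.67 CPM after RNAi, and gcsh-2 (a glycine cleavage H protein), at 46.7 ± 3.70 and 42.8 ± 2.69 CPM (SD, n = 3). Their log2 fold changes were -0.14 and -0.12, or -0.064 and -0.077 without T25B9.1 RNAi replicate 1.

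For cobalamin handling and sensing, 4 of 11 genes were below 0 and the median was 0.0080. The nuclear receptor gene nhr-114, which in worms adjusts transcription to the activity of the methionine cycle, was at 49.8, 42.2 and 53.6 CPM in controls and 75.6, 49.6 and 56.0 CPM after RNAi. It was highest in RNAi replicate 1, like sams-1, and its log2 fold change was 0.32 (SE 0.15, edgeR adjusted p = 0.717), or 0.12 without that library. The gene mmab-1, for a cobalamin adenosyltransferase, was at 36.4 ± 2.62 and 33.7 ± 0.751 CPM (SD, n = 3). The gene acdh-1, an acyl-CoA dehydrogenase gene that responds to low cobalamin and is named here after its values were seen, had 692 ± 99.5 CPM in controls and 723 ± 96.6 CPM after RNAi (SD, n = 3).

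Homocysteine leaves the cycle through cystathionine. The list for this exit also held cysteine synthase-like genes, which do not act on cystathionine. Of 6 genes tested of 7 listed, 3 were below 0. The groups did not overlap for 1 of the 6, cth-1, against 10.9% of all genes. The cystathionine gamma-lyase gene cth-1 was at 65.7, 59.7 and 63.3 CPM in controls and 85.2, 87.9 and 79.2 CPM after RNAi. Every RNAi library was above every control, and the log2 fold change was 0.42 (SE 0.069). The cysteine synthase-like gene cysl-2 was at 84.7, 58.3 and 91.6 CPM in controls and 53.2, 51.9 and 67.9 CPM after RNAi, which overlapped. By edgeR's quasi-likelihood test neither passed (adjusted p = 0.430 and 0.717), while DESeq2, which called 0.112% of all genes, called cth-1 (adjusted p = 0.00624). A further cystathionine gamma-lyase gene, cth-2, named here after its values were seen, was more abundant and had a lower mean with RNAi. It was at 179 ± 20.9 CPM in controls and 161 ± 13.5 CPM after RNAi (SD, n = 3), with overlap (edgeR adjusted p = 0.717).

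Among methyltransferase-like genes, R08F11.4 and rips-1 had log2 fold changes of 2.16 (SE 0.28) and -0.55 (SE 0.094), larger in size than that of any of the 10 genes. R08F11.4 was at 2.92, 2.07 and 1.48 CPM in controls and 9.36, 12.3 and 7.25 CPM after RNAi, and rips-1 at 39.9, 33.0 and 37.5 and at 23.6, 24.7 and 26.8 CPM. The groups did not overlap for either gene, R08F11.4 being higher with RNAi and rips-1 lower, where 10.9% of all genes did not overlap. By edgeR's quasi-likelihood test the adjusted p was 0.192 and 0.440, and DESeq2 called both (adjusted p of 1.41e-11 and 0.00111), among the 0.112% of all genes it called. Of the list's 4 genes 3 were tested, and the third, R08E5.1, named here after its values were seen, was at 4.30 ± 0.522 and 3.73 ± 0.651 CPM (SD, n = 3).

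Among 19 genes of other SAM users, such as histone and protein methyltransferases, and of polyamine synthesis, 11 were below 0 with a median of -0.028. The ornithine decarboxylase gene odc-1 is listed for polyamine synthesis, and its enzyme does not itself use SAM. Levels of odc-1 were 37.1, 34.6 and 35.8 CPM in controls and 46.6, 37.4 and 40.9 CPM after RNAi. Its groups did not overlap, where 10.9% of all genes did not. Its log2 fold change was 0.22, or 0.12 without T25B9.1 RNAi replicate 1. The histone methyltransferase gene set-2 was at 154 ± 19.1 and 178 ± 14.2 CPM (SD, n = 3). Neither passed (edgeR adjusted p = 0.717 for each).

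Of 8 genes of lipid synthesis, which in worms is known to respond when phosphatidylcholine is low, 2 were below 0 and the median was 0.014. The groups did not overlap for 1 of the 8, the fatty acid desaturase gene fat-7, against 10.9% of all genes. It is named here after its values were seen, at 61.6, 57.7 and 58.1 CPM in controls and 41.2, 56.6 and 55.8 CPM after RNAi. RNAi replicate 1 was its lowest library, and the difference was not called (edgeR adjusted p = 0.717). No fit of fat-7 without that library is given. The fatty acid synthase gene fasn-1 was at 240, 291 and 212 CPM in controls and 460, 278 and 286 CPM after RNAi. Unlike for fat-7, RNAi replicate 1 was the highest library of fasn-1, and the log2 fold change was 0.46 (SE 0.20, edgeR adjusted p = 0.717), or 0.18 without that library. The acetyl-CoA carboxylase gene pod-2 was at 369, 417 and 369 CPM and at 502, 402 and 416 CPM, and its log2 fold change was 0.19 (SE 0.10, edgeR adjusted p = 0.717), or 0.081 without that library.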

How the data were processed

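RNA of whole worms was sequenced from TruSeq v2 libraries, a kit without strand information, per the labels' protocols. One deposited table holds gene counts as whole numbers. The submitters' processing notes name featureCounts 1.4.6-p4, the aligner STAR 2.4.1d, bcl2fastq 1.8.4 and the build WBcel235, and their options and annotation release are not given. The authors also deposited a table named RPKM, treated here as a score: the factor from count to value differed between libraries by 0.496 to 1.98 times, in a pattern that repeated every 36 genes. The planned design had taken it for RPKM, and it served only as an alternative, as log2(value + pseudocount) in limma.

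Counts were filtered with filterByExpr (13374 genes), scaled by TMM and tested 2-sided with edgeR 4.0.16 (R 4.3.3) at a Benjamini-Hochberg adjusted p of 0.05 over all genes. The SE is the log2 fold change divided by the square root of F. Exonic lengths and coordinates came from Ensembl release 115 (WBcel235). An exact permutation test of 3 against 3 cannot go below 0.1 and was not used. Alternatives were other factors, filters and tools (DESeq2 1.42.0, limma 3.58.1), a block and leaving out each library. The tests were checked on simulated counts.

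The members and lists were chosen with earlier results of these data known. Named genes are the 10 members, T25B9.1, in each list the up to 2 tested genes with the smallest p, and each member's nearest gene. The markers described in 1 library, and acdh-1, cth-2, R08E5.1 and fat-7, fall outside this rule. The listed name R08E5.3 was not matched. Chi-square per gene between libraries was 18.7 to 31.2 within groups and 7.10 to 52.6 across them, so the counts of no pair agreed within sampling noise. The labels do not say what consecutive library numbers share. Deviations from the group means correlated across genes by 0.22, 0.42 and 0.29 in the consecutive pairs, so the block is given where it changed a count.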

Additional observations from a re-analysis of the deposited data

How the results depend on the processing

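No member was called under any of the 18 alternatives, and the 23 changes of sign among 180 refits of the members all fell in ahcy-1, mtrr-1, mthf-1 and pmt-1. The cause of the shifts below was not tested. The log2 fold change of ahcy-1 was 0.0071 with upper quartile factors, 0.0065 with library totals only and -0.10 to 0.050 with 1 library left out. With no filter mtrr-1 stood at -0.0011 and pmt-1 at -0.0018, and with 1 library left out mtrr-1 ran from -0.0037 to 0.026, pmt-1 from -0.045 to 0.050 and mthf-1 from -0.0022 to 0.12. On the second deposited table, whose values of 1 gene are not comparable between libraries, log2 differences turned at a pseudocount of 1 (with or without the minimum mean) and of 0.1 for ahcy-1 (0.097 and 0.097), mtrr-1 (-0.078 and -0.080), pmt-1 (-0.095 and -0.097), cka-1 (0.24 and 0.25), dhfr-1 (0.083 and 0.083), gcsh-2 (0.16 and 0.16) and mmab-1 (0.051 and 0.052).

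The count of members at an unadjusted p under 0.05, 0 in edgeR's fit, was 1 with no filter (sams-1), 1 with the replicate block of consecutive library numbers (sams-4) and 0 to 1 with 1 library left out (sams-1, without T25B9.1 RNAi replicate 3). The block moved no other count of members and gave -0.12 for the summed pair of sams-3 and sams-4, which ran from -0.16 to -0.077 with 1 library left out. In deviations from the group means, every consecutive pair correlated best with its own partner. By chi-square per gene, libraries 17 and 18 (7.10) and 21 and 22 (10.8) were closest of all pairs, and 13 and 14 (52.6) farthest apart. Among all genes, calls were 0 in edgeR's fit, 1 with RLE factors, 12 with the likelihood ratio test, 15 with DESeq2, 139 with no filter, 0 to 1 with 1 library left out, and 4 or 47 on the second table at a pseudocount of 1 or 0.1. The share of sams-1 in the synthetases with L4440 was 41.8% on raw counts and 42.0% on the second table. Counts of sams-5 were 71 to 133, and its CV with L4440 was 28.5%, where counting alone gives 10.2%. Groups of 3 are too small to call a single library an outlier.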
